A study of Homo sapiens with 9 samples.

Results

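Divergent promoters of an mRNA and a long non-coding RNA (lncRNA) were taken from the Gencode v44 annotation of the human genome (build hg38). A pair was 1 protein-coding and 1 lncRNA gene on opposite strands, head to head, with annotated starts within 1 kb of each other. There were 1459 such pairs among 3213 head-to-head gene pairs of any type, and they held 1418 lncRNA genes and 1448 protein-coding genes. The rule used annotation alone and no measured value. Molecules of each side were counted by TIF-Seq2, which sequences the capped 5′ end and the polyadenylated 3′ end of the same RNA molecule, so that each read pair reports where 1 molecule began and ended.

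The cells were K562, an established line from chronic myeloid leukaemia that carries the BCR-ABL1 fusion kinase. They were grown for 24 h with 1 µM imatinib, an inhibitor of that kinase, or with its solvent DMSO, in 2 biological replicates each (4 libraries). K562 is 1 line, so the values describe that line only. A read pair was given to a gene when its 5′ end lay within 500 bp of the gene's annotated start on the gene's strand. A side was called detected when the 4 libraries together held at least 10 read pairs for it. CPM below is the usual count of read pairs scaled to library size, here the read pairs of the tested genes after TMM scaling. Because a molecule gives 1 read pair whatever its length, levels were not divided by length, although the library preparation may capture long molecules less well.

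Most active mammalian promoters fire in both directions. RNA polymerase II that starts upstream and antisense of an mRNA usually makes a short, unstable RNA, since poly(A) signals are frequent and 5′ splice sites are scarce on that side, and the nuclear exosome degrades the product. Where the upstream RNA is spliced or long enough to be polyadenylated and kept, annotators record it as a divergent lncRNA, often named after its neighbour with the ending -DT (divergent transcript) or with -AS. The 2 genes of a pair thus share 1 nucleosome-depleted region but have start sites and poly(A) sites of their own.

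The 4 tables held 2263121 to 5135829 read pairs, of which 2049853 to 4636566 remained after the filters. Imatinib replicate 1 stood apart from the other libraries: 9.54% of its read pairs ended before an A-rich stretch of genomic sequence, against 7.62 to 8.07% in the others, and it held the most lncRNA molecules. Imatinib replicate 2 was the shallowest library. The erythroid genes HBG1, GATA1, TAL1 and KLF1 were detected, and KLF1 (log2 fold change 1.48) and HBG1 (2.28) rose after imatinib (edgeR, adjusted p under 0.05, as for all calls below). HBG2 and HBE1 could not serve as markers, since their annotated models share 1 far upstream start and hence the same counts. CISH (−2.28), PIM1 (−2.17) and SOCS2 (−4.74), targets of signalling below the fusion kinase, fell. Among markers of other cell types, CD3E, MS4A1 and EPCAM had no read pair in any library and COL1A1 had 2 in 1 library, whereas KRT8 (47.6 to 110 CPM) and CD3D (84.7 to 109 CPM in DMSO, 4.63 to 5.67 CPM in imatinib) were present. In such bulk samples, fewer cells of a type and less RNA per cell cannot be told apart.

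The stretch between the most used start of each side is printed for 7 of the pairs described below, because it is the piece of DNA that the 2 genes share. Each is given 5′ to 3′ on the strand of the mRNA with 12 bases beyond each start, so the mRNA runs to the right and the lncRNA leaves to the left, on the opposite strand. Capitals mark the start base of each side with the base before it. At the left these read as the reverse complement of the lncRNA's own letters, that is, the complement read backwards (TG stands for CA).
AKAP1-DT/AKAP1 (hg38 chr17:57084997-57085258, plus strand): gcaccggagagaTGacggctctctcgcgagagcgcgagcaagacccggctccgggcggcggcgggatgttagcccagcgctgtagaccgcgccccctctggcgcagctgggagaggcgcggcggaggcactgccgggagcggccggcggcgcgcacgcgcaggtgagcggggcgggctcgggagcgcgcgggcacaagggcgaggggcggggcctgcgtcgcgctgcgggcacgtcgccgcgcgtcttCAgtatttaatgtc
SLC2A1-DT/SLC2A1 (hg38 chr1:42958856-42959116, minus strand): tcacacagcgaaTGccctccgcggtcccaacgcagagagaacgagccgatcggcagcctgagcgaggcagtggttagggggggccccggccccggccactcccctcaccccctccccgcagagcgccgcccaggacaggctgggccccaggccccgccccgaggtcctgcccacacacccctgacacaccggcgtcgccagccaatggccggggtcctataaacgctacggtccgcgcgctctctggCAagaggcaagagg
LLPH-DT/LLPH (hg38 chr12:66130737-66130873, minus strand): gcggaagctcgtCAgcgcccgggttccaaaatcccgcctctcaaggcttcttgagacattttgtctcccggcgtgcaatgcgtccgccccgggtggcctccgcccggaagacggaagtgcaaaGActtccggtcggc
PCCA-DT/PCCA (hg38 chr13:100088935-100089129, plus strand): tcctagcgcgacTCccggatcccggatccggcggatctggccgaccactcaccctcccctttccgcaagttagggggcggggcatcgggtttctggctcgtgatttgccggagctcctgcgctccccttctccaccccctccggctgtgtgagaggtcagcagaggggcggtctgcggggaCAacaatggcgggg
PRKCQ-AS1/PRKCQ (hg38 chr10:6580264-6580518, minus strand): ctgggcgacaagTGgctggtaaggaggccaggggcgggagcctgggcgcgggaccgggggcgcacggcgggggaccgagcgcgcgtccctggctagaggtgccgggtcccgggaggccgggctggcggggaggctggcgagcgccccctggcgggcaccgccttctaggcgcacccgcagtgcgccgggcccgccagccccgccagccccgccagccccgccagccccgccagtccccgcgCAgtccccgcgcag
MRPL20-AS1/CCNL2 (hg38 chr1:1399324-1399564, minus strand): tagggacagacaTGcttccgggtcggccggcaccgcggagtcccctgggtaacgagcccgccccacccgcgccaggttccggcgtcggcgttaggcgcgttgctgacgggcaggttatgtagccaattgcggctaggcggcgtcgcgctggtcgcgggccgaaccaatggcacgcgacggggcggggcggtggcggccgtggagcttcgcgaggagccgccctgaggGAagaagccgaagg
CARNMT1-AS1/C9orf40 (hg38 chr9:74952874-74953012, minus strand): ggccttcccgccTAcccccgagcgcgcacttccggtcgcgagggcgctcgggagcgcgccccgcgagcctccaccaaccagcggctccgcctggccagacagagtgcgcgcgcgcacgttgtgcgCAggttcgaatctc

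In these 7 stretches the used starts were 112 to 237 bp apart. The AKAP1 and SLC2A1 pairs had starts 237 and 236 bp apart, the LLPH and CARNMT1-AS1 pairs 112 and 114 bp.

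Both sides were detected in 404 of the 1459 pairs. Only the mRNA was detected in 498, only the lncRNA in 60 and neither in 497, and 322 pairs had no read pair on either side. The 404 pairs held 385 different lncRNAs and 397 different mRNAs, since some genes stand in more than 1 pair (41 lncRNAs and 11 mRNAs of the whole set). By gene, 445 of 1418 divergent lncRNAs (31.4%) and 893 of 1448 mRNA partners (61.7%) reached 10 read pairs. Among genes in no head-to-head pair, 7.11% of 16818 lncRNAs and 34.98% of 16691 protein-coding genes did. A total of 602 divergent lncRNAs and 369 mRNA partners had no read pair in any library, which limits each to at most 3 read pairs over the 4 libraries.

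Detection was spread over the naming classes of the lncRNA. Both sides were detected in 150 of 435 pairs whose lncRNA ended in -DT, in 57 of 120 with -AS, in 165 of 807 known by an identifier alone, in 10 of 38 LINC genes and in 4 of 6 SNHG (small nucleolar RNA host) genes. By annotated distance, 181 of 460 pairs with starts at most 100 bp apart were detected on both sides, against 19 of 170 pairs whose starts lay 501 to 1000 bp apart. The annotated distance had a median of 147 bp over all pairs and of 116.5 bp over the 404. The most used start positions lay a median of 186.5 bp apart (quartiles 114 and 297.75 bp), were within 300 bp in 291 pairs and had crossed over in 13.

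In 84 of the 404 pairs a 500-bp window also held a transcript start of another gene on the same strand, and molecules of the 2 genes cannot be told apart by their start there. This concerned the lncRNA window in 45 pairs, in 21 of them with a protein-coding gene. The values for the 320 pairs with windows of their own are given beside the totals where they differ.

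The mRNA side was the more abundant in most pairs. The median log2 ratio of lncRNA to mRNA read pairs, with 0.5 added to each count, was −2.22, or 0.214 lncRNA molecules per mRNA molecule, with quartiles of −4.67 and −0.40. The range was very wide, from −9.78 in the pair of MAGOH (a core protein of the exon junction complex) to 7.21 in that of RAB30 (a Golgi small GTPase). The lncRNA had the higher count in 83 of 404 pairs, and in 52 of the 320 with windows of their own, whose median was −2.54. In 39 pairs the lncRNA made up under 1% of the molecules of the pair.

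**Figure D1:**
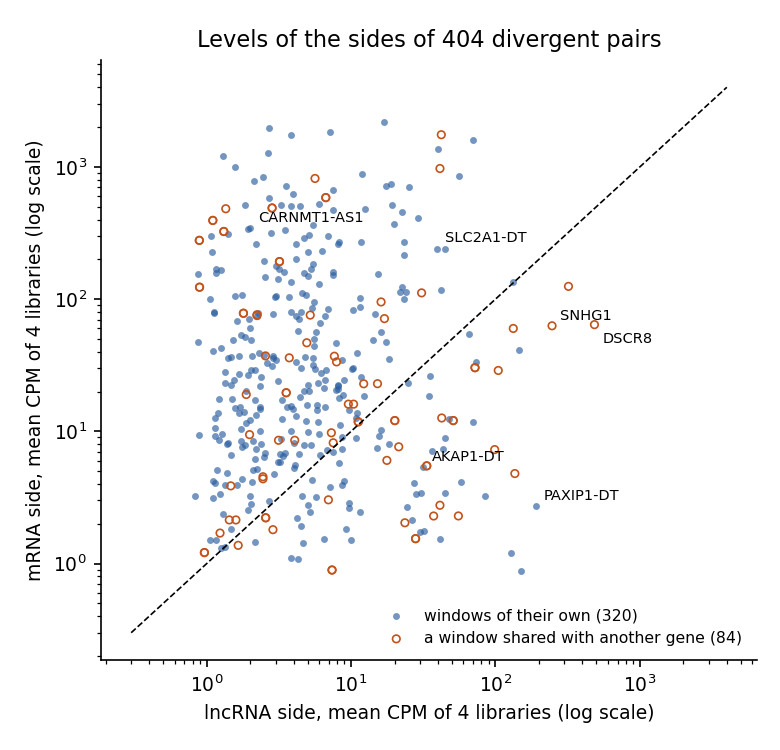
Mean CPM over 4 libraries of the lncRNA side (horizontal) and the mRNA side (vertical) of 404 divergent pairs, on log axes, with equality dashed and pairs that share a window with another gene as open circles. Most points lie above the dashed line, and the level of one side does not follow that of the other (Spearman's rho 0.01).

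Across the 404 pairs the levels of the sides had a Spearman correlation of 0.01, given as a description since the points share libraries and depth. The difference between the sides of mRNA-lncRNA pairs was larger than between the sides of 529 detected pairs of 2 protein-coding genes. The median absolute log2 ratio was 2.93 ± 0.42 against 2.42 ± 0.04 (mean ± SD of 4 libraries), higher in each of the 4 libraries, with an exact paired permutation p of 0.13, the smallest that 4 libraries allow.

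The level of a divergent lncRNA, where detected, was close to that of other lncRNAs. The median CPM over genes was 3.95 ± 1.70 for the 445 divergent lncRNAs and 3.78 ± 1.14 for 1195 lncRNAs in no head-to-head pair (exact paired permutation p = 0.75). mRNA partners had a median of 18.6 ± 1.10 CPM, against 16.3 ± 0.799 for protein-coding genes in no head-to-head pair and 27.7 ± 1.24 for those in pairs of 2 protein-coding genes (exact p = 0.13 each, the smallest possible).

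By the family of the partner, the 7 detected pairs with a ribosomal protein gene had the lowest ratios, with a median log2 ratio of −7.35 and a range of −9.52 to −4.36. The 3 pairs with a mitochondrial ribosomal protein gene had a median of −5.19, and that of 1 of them was 2.49. The 12 pairs with a ZNF zinc finger gene had a median of −1.42, from −4.92 to 4.65. Of the 3 TRIM pairs, 2 had more lncRNA than mRNA. By the name of the lncRNA, the medians were −2.09 for -DT genes, −1.96 for -AS genes, −2.69 for those with an identifier alone and −3.16 for LINC genes.

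The 10 pairs with the most lncRNA molecules were led by DSCR8, opposite KCNJ6, which encodes an inward rectifier potassium channel. DSCR8 had 376 and 293 CPM in DMSO and 690 and 579 CPM in imatinib, and KCNJ6 49.0 to 73.4 CPM in the 4 libraries. The KCNJ6 window also holds a start of DSCR4, and none of its 637 read pairs ended at an annotated end of KCNJ6. The next, ENSG00000288606 opposite FBXL5, an iron-regulated F-box protein, had 3224 read pairs, but its window holds the start of the protein-coding gene FAM200B, and none of its molecules ended at an annotated end of the lncRNA.

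SNHG1, a spliced host of small nucleolar RNAs, had 275 and 189 CPM in DMSO and 242 and 280 CPM in imatinib. Its partner SLC3A2, the heavy chain of the CD98 amino acid transporter, had 76.8 and 72.0 CPM in DMSO and 53.6 and 49.0 CPM in imatinib. SNHG1 exceeded SLC3A2 in every library, by 2412 to 658 read pairs in all.

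Some lncRNAs were abundant where few mRNA molecules started in the window. PAXIP1-DT had 1856 read pairs against 27 of PAXIP1, a subunit of a histone H3 lysine 4 methyltransferase complex. RAB30-DT had 1549 against 10 of RAB30, and ARRDC1-AS1 had 1440 against 11 of EHMT1, a histone H3 lysine 9 methyltransferase. ZNF8-DT had 1364 against 54 of the zinc finger gene ZNF8. The ZNF8 window also holds a start of ZNF8-ERVK3-1, and the ratio of that pair was lowest in DMSO replicate 2 (log2 3.12). mRNA molecules from other starts of these genes were not counted.

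The remaining members of the 10 were more even. EMSY-DT had 1502 read pairs against 436 of EMSY, which encodes a BRCA2-binding protein. ENSG00000258924 had 1424 against 622 of POLDIP2, with a window that also holds a start of TMEM199. None of the molecules from that window ended at an annotated end of the lncRNA. MRPL20-AS1 had 1297 against 1350 of the cyclin gene CCNL2, a log2 ratio of −0.06 and the most balanced of the 10.

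Molecules from the lncRNA side spanned far less of the genome than those from the mRNA side. The span is the genomic distance from the 5′ to the 3′ end, introns included. Its median per gene had a median over genes of 2.78 kb for 445 lncRNAs (quartiles 0.99 and 12.2 kb) and of 22.2 kb for 893 mRNAs (8.97 and 45.2 kb). In single libraries the lncRNA value was 2.83 ± 0.28 kb and the mRNA value 21.7 ± 0.60 kb (mean ± SD of 4 libraries, exact paired permutation p = 0.13, the smallest possible). The per-library values here and below use genes with at least 5 read pairs in the library. The annotated genes have median lengths of 5.08 and 30.6 kb.

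**Figure D2:**
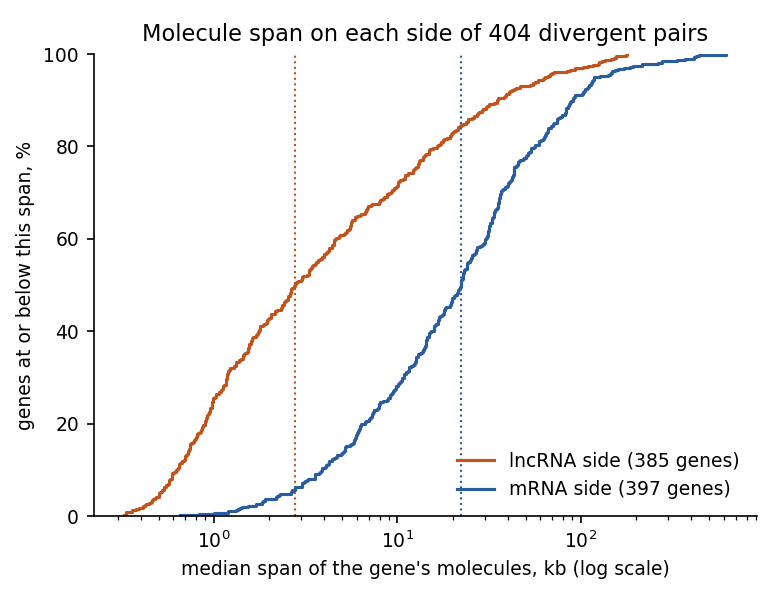
Cumulative share of genes (vertical, %) by the median span of their molecules (horizontal, kb, log scale) for the 385 lncRNAs and 397 mRNAs of the 404 pairs detected on both sides, with medians dotted. The lncRNA curve lies to the left of the mRNA curve over nearly the whole range.

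The difference was not uniform. A span under 1 kb was found for 113 of 445 lncRNAs and 6 of 893 mRNAs, and a span over 10 kb for 126 lncRNAs and 637 mRNAs. In 320 of 404 pairs (79.2%) the mRNA had the longer span. The spans of the sides were unrelated across pairs (Spearman's rho −0.06). When every molecule was given equal weight instead of every gene, the lncRNA median was 3.82 kb and the mRNA median 8.51 kb, as genes with many molecules then weigh more.

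Compared with other lncRNAs, the divergent ones were short, as were their annotated genes. The median annotated length was 5.08 kb for detected divergent lncRNAs and 12.5 kb for other detected lncRNAs. The 1195 detected lncRNAs in no head-to-head pair had a median span of 7.14 ± 0.44 kb in single libraries, longer than the divergent lncRNAs in all 4 (exact paired permutation p = 0.13). mRNA partners spanned slightly more than protein-coding genes in no head-to-head pair (19.3 ± 0.22 kb) and than those in pairs of 2 protein-coding genes (16.9 ± 0.47 kb), in all 4 libraries (exact paired permutation p = 0.13 each).

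Many lncRNA molecules ended close to where they began. Averaged over genes, 43.3% of lncRNA molecules and 4.63% of mRNA molecules ended within 2 kb of their start. In single libraries these shares were 43.7 ± 2.41% and 4.40 ± 0.38%, and lncRNAs in no head-to-head pair had 27.5 ± 1.47% (exact paired permutation p = 0.13 for each comparison with the divergent lncRNAs). For 81 lncRNAs every molecule ended within 2 kb and for 109 none did.

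Most 3′ ends of both sides lay at known sites, but more of those of the lncRNA lay past the annotated gene. An end was called annotated within 200 bp of any transcript end of the gene. This held for 57.6% of lncRNA molecules and 67.6% of mRNA molecules, averaged over genes, and in single libraries for 59.4 ± 1.51% and 69.2 ± 1.42%. Ends past the last base of the gene and more than 200 bp from any annotated end made up 11.3 ± 0.99% on the lncRNA side. On the mRNA side they made up 1.34 ± 0.07% (exact paired permutation p = 0.13 for these and for annotated ends). At least 50% of the molecules had such ends past the gene for 51 lncRNAs and 6 mRNAs.

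**Figure D3:**
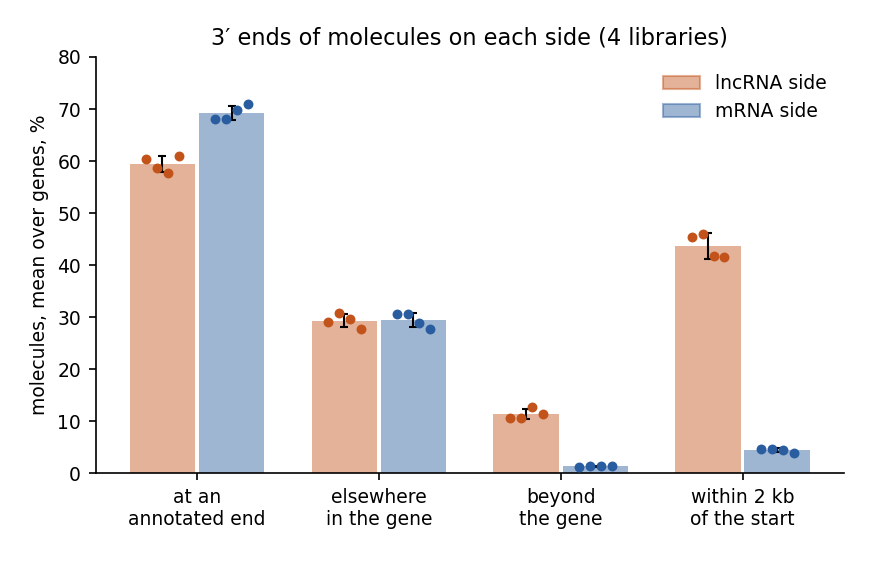
Share of molecules (%, mean over genes) whose 3′ end lay at an annotated end, elsewhere in the gene, beyond the gene, or within 2 kb of the start, for the lncRNA and mRNA sides. Bars are means of 4 libraries, error bars are SD and points are libraries in the order DMSO 1, DMSO 2, imatinib 1 and imatinib 2. The largest contrast is in ends within 2 kb, 43.7% against 4.40%.

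The ends varied from gene to gene. At least 90% of molecules reached an annotated end for 153 lncRNAs and 435 mRNAs, and at most 10% did for 101 and 145. The most used 3′ end took a median of 70.0% of the molecules of a lncRNA and 75.6% of those of an mRNA. For SNHG1 it took 99.0% of the molecules, for MRPL20-AS1 99.0% and for EMSY-DT 99.2%. RAB30-DT spread over several ends, the first with 41.0%, and 94.3% of its molecules ended within 2 kb although the annotated gene covers 35.7 kb. Those early ends are known ones, as 98.9% of its molecules ended at an annotated end.

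RWDD3-DT was alike in that respect, with a median span of 0.819 kb in an annotated gene of 72.3 kb and 96.5% of molecules at 1 end. PRKCQ-AS1 spanned 3.79 kb of an annotated 36.5 kb, and PCCA-DT 2.75 kb of 35.9 kb. LLPH-DT went the other way, as 94.6% of its molecules ended beyond the 3.70 kb annotated gene, with a median span of 5.58 kb. On the mRNA side, EMSY had a median span of 8.90 kb in a gene of 108 kb, and 97.7% of its molecules shared 1 end.

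A poly(A) signal, AATAAA or ATTAAA on the transcript's strand, started 10 to 35 bases before the most used 3′ end for 74.2% of the 445 lncRNAs and 82.4% of the 893 mRNAs, and for 76.9% and 81.2% of lncRNAs and protein-coding genes in no head-to-head pair. Among end sites with at least 10% of a gene's molecules, the signal was present at 70.0% of 437 annotated and 66.1% of 342 unannotated lncRNA ends, and at 79.6% of 1001 and 72.4% of 529 mRNA ends. The last 40 bases before the most used end of 4 lncRNAs discussed here are printed with the signal in capitals.
SNHG1 (hg38 chr11:62851991-62852030, minus strand): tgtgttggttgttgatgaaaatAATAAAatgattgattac
SLC2A1-DT (hg38 chr1:42983315-42983354, plus strand): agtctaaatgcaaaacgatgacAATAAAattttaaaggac
LLPH-DT (hg38 chr12:66136356-66136395, plus strand): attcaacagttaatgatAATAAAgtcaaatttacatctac
RWDD3-DT (hg38 chr1:95233177-95233216, minus strand): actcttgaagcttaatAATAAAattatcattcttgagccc

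The LLPH-DT end lies outside the annotated gene and still carries the signal, and the RWDD3-DT end lies 0.819 kb from the start. Read pairs that ended before 7 or more A in 10 genomic bases, which may come from priming inside an RNA, were left out. They made up 12.8% of lncRNA-side and 5.87% of mRNA-side read pairs, and their share of the lncRNA side was 12.2 to 13.6% in all 4 libraries.

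The start regions of the sides were alike in composition. From 250 bases before to 50 after the most used start, the median GC content was 67.3% for both lncRNAs and mRNA partners, whose regions overlap, against 60.0% for lncRNAs in no head-to-head pair. The median observed to expected ratio of CpG was 0.907, 0.898 and 0.718. A pyrimidine followed by a purine at the start base was found for 72.4% of lncRNAs and 73.1% of mRNAs. The TATA box letters TATAAA, on either strand of the region, were present for 3.82% and 3.36%, against 9.12% of other lncRNAs. The letters GGGCGG, bound by Sp1, were present for 74.8% and 76.5%, CCAAT for 36.9% and 37.1%, and CGGAAG for 43.6% and 41.7%. In protein-coding genes in no head-to-head pair these shares were 73.7% for GGGCGG, 36.9% for CCAAT, 37.4% for CGGAAG and 5.104% for TATAAA.

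The sides differed downstream of the start. In the first 1000 genomic bases from the most used start, AATAAA occurred 0.622 times per lncRNA and 0.241 times per mRNA, and at least once for 38.4% and 18.7%. Lone lncRNAs had 0.581 and lone protein-coding genes 0.242. The 5′ splice site letters GGTAAG occurred 0.178 times per divergent lncRNA, 0.231 per mRNA partner and 0.264 per lone lncRNA. These are counts of letters in the reference, whether used as sites or not. They include signals of molecules that end within these bases. A median span under 1 kb was found for 113 of 445 lncRNAs and 6 of 893 mRNAs. How much of the contrast in AATAAA such ends make up was not tested.

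Imatinib did not move the sides alike. Over all 1418 divergent lncRNAs, with no filter, the summed level was 5283 and 4954 CPM in the DMSO libraries and 8472 and 6601 CPM in the imatinib libraries. Over all 1448 mRNA partners it was 127176 and 112347 CPM in DMSO and 109547 and 116222 CPM in imatinib. The lncRNA sums of the conditions did not overlap and those of the mRNA side did (exact permutation p = 0.3333 and 0.667, 0.3333 being the smallest that 2 against 2 libraries allow). Without the 10 most abundant lncRNAs the detected lncRNAs summed to 3297 and 3194 CPM against 5718 and 4372 CPM, a 1.55-fold difference. lncRNAs in no head-to-head pair were also higher, at 28007 and 26471 CPM against 33764 and 29219 CPM.

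Of the 445 detected lncRNAs, 258 (58.0%) were higher in both imatinib libraries than in either DMSO library and 33 (7.42%) lower in both. For the 893 mRNA partners these counts were 225 (25.2%) and 273 (30.6%). Over all 10590 detected genes the shares were 30.0% and 26.9%. Over lncRNAs in no head-to-head pair they were 46.4% and 17.3%, so those lncRNAs leaned the same way. Detection asked for at least 10 read pairs over the 4 libraries together. A lncRNA with few read pairs could thus be detected mainly through the condition in which it was higher. How much of the 58.0% and the 7.42% this rule makes up was not tested.

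Among 7924 genes tested with edgeR (p-values adjusted by Benjamini and Hochberg over all of them), 721 genes (9.1%) were called higher and 487 (6.15%) lower after imatinib at an adjusted p under 0.05. Of the 245 divergent lncRNAs that entered the test, 63 were called higher and 2 lower, with a median log2 fold change of 0.90. The share of all tested lncRNA genes called higher was 23.8%, close to the 25.7% of the divergent ones. The filter on low counts admitted 101 of the 245 through the imatinib libraries alone, a path that favoured lncRNAs higher there. Among the 128 that passed in both conditions, 21 were called higher and 2 lower, with a median log2 fold change of 0.47. Of 740 mRNA partners tested, 41 were called higher and 48 lower, with a median of −0.04 against 0.01 for all genes.

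These counts rested on few libraries. Leaving out DMSO replicate 1, DMSO replicate 2, imatinib replicate 1 or imatinib replicate 2 gave 37, 14, 39 and 123 called lncRNAs in place of 65, and 34, 28, 105 and 165 called mRNA partners in place of 89, the lone library of a condition being assumed to vary like the other. The lncRNAs called were mostly higher in each of these fits (13 to 117 higher, 0 to 6 lower). DESeq2 called 27 lncRNAs higher and 2 lower.

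Whether the ratio within a pair changed was tested directly, in a model of both sides in the 4 libraries. Among 404 pairs, 78 had a higher and 5 a lower lncRNA to mRNA ratio after imatinib (20.5% called, against 16.4% of all 1018 head-to-head pairs tested and 14.2% of pairs of 2 protein-coding genes). The lncRNA's log2 fold change exceeded that of its mRNA in 326 of 404 pairs (80.7%), and the median difference was 1.22. A side needed 10 read pairs over the 4 libraries together, so a lncRNA could enter mainly through 1 condition. CARNMT1-AS1 had 0 read pairs in DMSO and 19 in imatinib, and HK2-DT had 9 in DMSO and 1 in imatinib. In the 320 pairs with windows of their own, 62 had a higher and 4 a lower ratio. The count of 83 called pairs fell to 28 without DMSO replicate 1, 6 without DMSO replicate 2 and 2 without imatinib replicate 1, and was 93 without imatinib replicate 2. With the replicate block it was 36, and with DESeq2 20. The median difference stayed above 0 in each of these fits, and was 0.78 without imatinib replicate 1.

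The per-library ratios come from the same counts of the same pairs, so they describe the shift and add no further support. The median log2 ratio over the 404 pairs was −2.82 and −2.99 in DMSO and −1.68 and −2.10 in imatinib, and the lncRNA had the higher count in 79, 72, 110 and 101 pairs. In the 105 pairs with at least 100 lncRNA read pairs, where low counts matter less, the medians were 0.10 and −0.32 in DMSO and 0.88 and 0.47 in imatinib. The share of A-rich ends on the lncRNA side did not separate the conditions (13.6% and 12.2% in DMSO, 12.6% and 13.3% in imatinib).

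The span of lncRNA molecules overlapped between the conditions when the same genes were compared. Over all lncRNAs with enough read pairs in a library, the median span was 2.64 and 2.56 kb in the DMSO libraries and 3.16 and 2.97 kb in the imatinib libraries, and the share ending within 2 kb was 45.4% and 46.1% against 41.7% and 41.5%. These values rest on 263 to 420 lncRNAs, a different set in each library. Over the 216 lncRNAs with at least 5 read pairs in all 4 libraries, a comparison chosen after seeing the data, the median span was 2.65 and 2.63 kb in DMSO and 2.82 and 2.64 kb in imatinib (exact permutation p = 0.667). The share of their molecules ending within 2 kb was 44.9% and 45.7% against 42.4% and 42.3%, without overlap (exact permutation p = 0.3333, the smallest possible). Over the 710 mRNA partners chosen alike, the median span was 20.3 and 20.4 kb in DMSO and 21.5 and 21.6 kb in imatinib, also without overlap (exact permutation p = 0.3333). The share of lncRNA molecules at annotated ends overlapped between conditions (exact permutation p = 1).

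**Figure D4:**
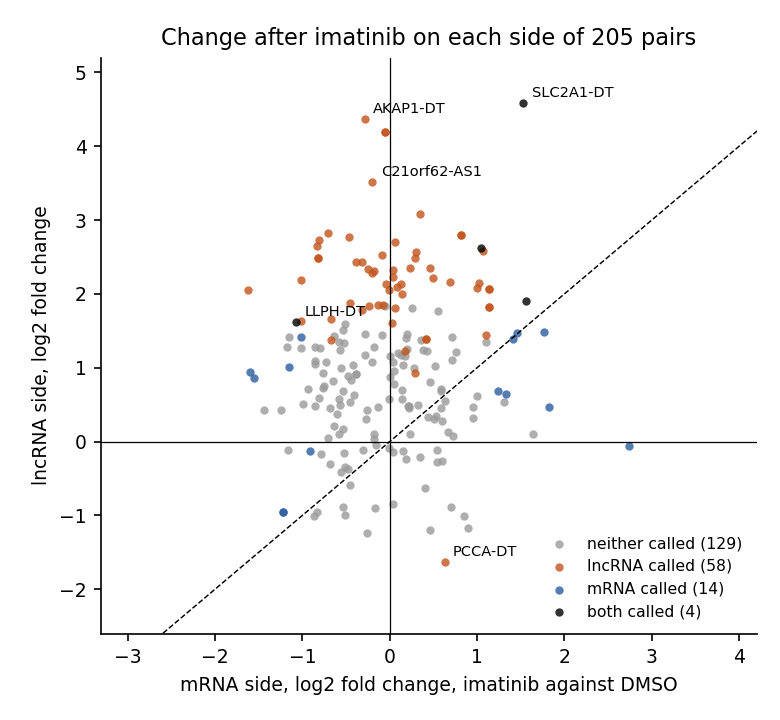
Log2 fold change, imatinib against DMSO, of the mRNA side (horizontal) and the lncRNA side (vertical) of the 205 pairs in which both sides were tested, with equality dashed. The height of the points is partly fixed by the filter on low counts, since in 88 pairs the lncRNA entered through the imatinib libraries alone. The points spread about 0 on the horizontal axis, with 58 pairs called on the lncRNA side alone, 14 on the mRNA side alone and 4 on both. Of all lncRNA genes tested, 23.8% were called higher.

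In the 205 pairs with both sides tested, 57 had a lncRNA called higher next to an mRNA that was not called, and 1 a lncRNA called lower. Of all lncRNA genes tested, 23.8% were called higher. With at least 10 read pairs in every library, 19.4% of 124 divergent lncRNAs were called higher. The share was 18.0% for 378 lncRNAs in no head-to-head pair. In 88 of the 205 pairs the lncRNA entered the test through the imatinib libraries alone, and these gave 37 of the 57. The filter favoured lncRNAs that were higher there, and 87 of the 88 had a log2 fold change above 0. In the 105 pairs whose lncRNA passed the filter on low counts in both conditions, 20 lncRNAs were called higher alone and 1 lower alone, with a median log2 fold change of 0.57 for the lncRNA and −0.06 for the mRNA. Over all 205 pairs, the mRNA alone was called higher in 7 pairs and lower in 7, both sides were called in 4, and neither in 129. Across these pairs the log2 fold changes of the sides had a Spearman correlation of 0.07, and across 393 pairs of 2 protein-coding genes it was 0.04. Both are descriptions, as all pairs share the same 4 libraries.

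AKAP1-DT gave the clearest case of a lncRNA that rose alone. With 7 and 10 read pairs in DMSO, it entered the test through the imatinib libraries alone, a path that favoured lncRNAs higher there. The same held for SLC2A1-DT, ENSG00000232234, C21orf62-AS1, RWDD3-DT, ANKRD17-DT and ENSG00000288961 below. The sizes of these rises are thus partly fixed by the filter on low counts. AKAP1-DT had 3.00 and 2.83 CPM in DMSO and 79.4 and 41.0 CPM in imatinib. Both imatinib libraries stood well above the DMSO libraries, with a log2 fold change of 4.37 (SE 0.47, adjusted p = 0.00075). AKAP1, which anchors protein kinase A at the outer mitochondrial membrane, had 6.44 and 5.67 CPM in DMSO and 6.03 and 3.31 CPM in imatinib. The difference of the sides was 4.71 on the log2 scale (SE 0.75, adjusted p = 5.03e-07), and it passed the threshold under all 15 alternatives tried. The lncRNA thus went from below to above its mRNA at the promoter printed above.

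SLC2A1-DT rose with its partner, but by more. It had 4.29 and 2.268 CPM in DMSO and 108 and 43.0 CPM in imatinib (log2 fold change 4.58, SE 0.55, adjusted p = 0.00131). SLC2A1, the glucose transporter GLUT1, had 99.98 and 147 CPM in DMSO and 372 and 344 CPM in imatinib (1.53, SE 0.29, adjusted p = 0.008). The difference was 2.91 (SE 0.62, adjusted p = 0.000231). It was not called without DMSO replicate 2 (2.158, adjusted p = 0.146) or without imatinib replicate 1 (2.30, adjusted p = 0.0688). The SLC2A1 pair is the only one in which both sides were called and the ratio also rose, apart from LLPH.

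The other pairs called higher on both sides were those of ZDHHC12 and SLC25A39. ZDHHC12-DT had 9.87 and 9.07 CPM in DMSO and 36.2 and 34.4 CPM in imatinib, and ZDHHC12, a protein palmitoyltransferase, 65.2 and 59.5 CPM against 204 and 163 CPM. Their log2 fold changes were 1.90 and 1.56, and the difference of 0.34 (SE 0.59) did not pass the test. ENSG00000288961 had 1.72 and 1.70 CPM against 14.5 and 5.96 CPM, opposite the mitochondrial glutathione carrier SLC25A39 with 350 and 335 CPM against 746 and 671 CPM. These log2 fold changes were 2.62 and 1.05, and their difference of 1.49 (SE 0.69) did not pass either.

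LLPH was the only pair called in opposite directions. LLPH-DT had 12.9 and 9.35 CPM in DMSO and 30.1 and 37.7 CPM in imatinib (log2 fold change 1.61, adjusted p = 0.0168), and LLPH 684 and 539 CPM in DMSO and 233 and 352 CPM in imatinib (−1.07, adjusted p = 0.0344). The difference was 2.70 (SE 0.54, adjusted p = 9.2e-05), and it was not called without imatinib replicate 1 (2.56, adjusted p = 0.0561). EMSY, among the 10 most abundant, was close to this pattern. EMSY-DT had 91.8 and 101.5 CPM in DMSO and 264 and 124 CPM in imatinib, a log2 fold change of 1.01 that was not called, while EMSY fell from 62.2 and 51.9 CPM to 23.1 and 28.5 CPM (−1.15, adjusted p = 0.0393), and the difference of 2.08 was called (adjusted p = 0.00511).

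The lncRNAs that fell were PRKCQ-AS1 and PCCA-DT, the only 2 called lower. PRKCQ-AS1 had 56.2 and 41.1 CPM in DMSO and 15.3 and 15.9 CPM in imatinib (log2 fold change −1.64, SE 0.35, adjusted p = 0.0125), opposite PRKCQ, protein kinase C theta, with 0.662 to 2.57 CPM. PCCA-DT had 24.9 and 23.5 CPM in DMSO and 5.67 and 10.6 CPM in imatinib (−1.63, SE 0.42, adjusted p = 0.0273). PCCA, the alpha subunit of propionyl-CoA carboxylase, had 9.01 and 7.37 CPM in DMSO and 14.2 and 10.6 CPM in imatinib, and the ratio of the pair fell by 2.28 on the log2 scale (adjusted p = 0.0142). The call of PCCA-DT was lost under 4 of 13 alternatives.

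Most of the other pairs among the 10 with the largest called difference of ratio had few lncRNA molecules. CARNMT1-AS1, opposite C9orf40, had no read pair in either DMSO library and 15 and 4 in the imatinib libraries, at least 8.57-fold higher than a floor of 3 read pairs over the DMSO group (the exact 95% lower limit of the ratio is 6.31). With a window of 1000 bp its difference of ratio was 1.78 in place of 6.47. C9orf40 had 379 and 296 CPM in DMSO and 255 and 442 CPM in imatinib. ENSG00000232234, opposite EEF1E1 of the aminoacyl-tRNA synthetase complex, had 1 read pair in each DMSO library and 25 and 7 in imatinib, a ratio of 21.6 (95% exact interval 5.52 to 186). EEF1E1 and EEF1E1-BLOC1S5 have a common start and the same counts, so this lncRNA takes 2 of the 10 places.

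ENSG00000287553 opposite OVCA2 had 1 read pair in DMSO and 25 in imatinib (ratio 33.8, interval 5.54 to 1389), and the OVCA2 window is shared with DPH1. MAGOH-DT had 1 and 12 (ratio 16.2, interval 2.4 to 694), next to 972 to 1573 CPM of MAGOH. ENSG00000286362, opposite the TFIID subunit gene TAF2, also had 1 and 12. C21orf62-AS1 opposite PAXBP1 had 3 and 28 (ratio 12.6, interval 3.9 to 64.9). Such intervals cover counting error only. The calls of these pairs were fragile: of 15 alternatives, the called difference was lost in 4 for C21orf62-AS1 and MAGOH-DT and in 2 for ENSG00000287553 and ENSG00000286362, and for the last 3 of these lncRNAs some alternatives gave no value. Leaving out DMSO replicate 2 ended the call for all 4, as it did for ENSG00000232234 (adjusted p = 0.168) and CARNMT1-AS1 (adjusted p = 0.0528).

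In the TRMT61A pair the mRNA was called lower. TRMT61A, a subunit of the tRNA methyltransferase for adenosine 58, had 34.3 and 42.2 CPM in DMSO and 6.38 and 9.93 CPM in imatinib, a log2 fold change of −2.27 (SE 0.39, adjusted p = 0.00544), while TRMT61A-DT had 4 read pairs in DMSO and 9 in imatinib, a ratio of 3.04 after scaling to depth (interval 0.85 to 13.5). The difference of this pair was not called without either DMSO library. ANKRD17-DT had 3.00 and 1.70 CPM in DMSO and 12.8 and 5.30 CPM in imatinib (2.05, adjusted p = 0.0392), next to ANKRD17, an ankyrin repeat protein, with 5.15 and 4.82 CPM against 2.13 and 0.662 CPM, which was not called. The called difference of the ANKRD17 pair was lost in 4 of 15 alternatives. RWDD3-DT was the fifth of the lncRNAs with the largest rise, from 1.29 and 1.134 CPM to 15.6 and 3.97 CPM, a log2 fold change of 3.08 (adjusted p = 0.0174).

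The mRNA partners with the largest changes mostly stood opposite a lncRNA that was not detected. So did most of the 893 detected mRNA partners, of which 397 were in pairs detected on both sides. EGR1, an immediate early transcription factor, had 34.3 and 20.1 CPM in DMSO and 1.42 and 0 CPM in imatinib, a log2 fold change of −4.83 (adjusted p = 0.00257). RIOX2 (−3.25), TLNRD1 (−3.07), CDC42EP2 (−2.87) and the glycolytic enzyme gene HK2 (−2.93) completed the 5 largest falls, and only HK2 had a detected lncRNA, with 9 read pairs in DMSO and 1 in imatinib. YPEL5 had 111 and 114 CPM in DMSO and 1047 and 560 CPM in imatinib, a log2 fold change of 2.84 (adjusted p = 0.0013). SMIM14 (3.59), the antiproliferative gene BTG2 (2.99), COL18A1 (2.91), which encodes a collagen chain, and CCDC92 (2.74) completed the rises. All of these mRNAs but YPEL5 entered the test through the libraries of 1 condition alone, a path that favoured genes higher there. Of 13 alternatives, 3 lost the call of HK2, 2 that of TLNRD1 and of CCDC92, and 1 that of SMIM14 and of CDC42EP2. Some gave no value for HK2 and TLNRD1. The calls of EGR1, RIOX2, YPEL5, BTG2 and COL18A1 were kept in all 13.

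Opposite COL18A1, ENSG00000273796 had no read pair in DMSO and 15 and 4 in imatinib. Opposite CCDC92, ENSG00000274874 had 4.29 and 10.5 CPM in DMSO and 7.80 and 6.62 CPM in imatinib, so the ratio fell by 2.68 on the log2 scale (adjusted p = 0.0142). Its window also holds starts of RFLNA and ZNF664. With the PCCA pair, this makes 2 of the 5 pairs with a lower ratio. The others, named here after their values were seen, were those of the zinc transporter gene SLC30A6 (−2.13, adjusted p = 0.00773), NUTM2E opposite NUTM2B-AS1 (−1.90, adjusted p = 0.0333) and TBC1D22A (−1.62, adjusted p = 0.037). NUTM2E belongs to a family of near-identical copies, so its counts are uncertain.

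By naming class, the ratio was called higher in 26 of 150 -DT pairs and lower in 3, higher in 9 of 57 -AS pairs and lower in 1, and higher in 33 of 165 pairs with an identifier alone and lower in 1. It was called higher in 8 of 18 pairs with another symbol, 2 of 10 LINC pairs and 0 of 4 SNHG pairs. Over all 404 pairs 20.5% were called in either direction, against 16.4% of all 1018 head-to-head pairs tested. Differences between the classes were not tested. The median difference of the log2 fold changes was 1.30 for -DT, 0.39 for -AS and 1.34 for identifiers alone. It was 1.55 for other symbols, 1.92 for LINC and 0.24 for SNHG. By partner family, it was 0.03 for the 12 ZNF pairs and 0.12 for the 7 ribosomal protein pairs, against 1.22 over all 404 pairs. Families with 1 to 3 pairs gave 1.07 (mitochondrial ribosomal proteins), 1.17 (EIF), 2.68 (PSM), 0.76 (NDUF) and −1.04 (TRIM).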

How the data were processed

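TIF-Seq2 libraries came from 2 DMSO and 2 imatinib cultures of K562. Per the study's methods, the authors trimmed reads with cutadapt, used STAR to align each end on its own to hg38, retained pairs whose ends both mapped uniquely to the same chromosome, and removed PCR duplicates by unique molecular identifiers. They deposited counts of read pairs for each combination of 5′ and 3′ position, pooled over no replicates and not normalized. The submitters' processing notes name cutadapt 1.16, STAR 2.5.3a, minimap2 2.16 and bedtools 2.27.1.

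From these counts, position pairs spanning at least 300 bp and at most 2 Mb were kept, and 3′ ends followed by 7 or more A in 10 genomic bases were dropped. Each gene's window was 500 bp to either side of its Gencode 44 start, and sequences came from hg38. Genes were tested with edgeR 4.0.16 in R 4.3.3 (quasi-likelihood, robust, TMM, filterByExpr, no replicate block), and a pair's change of ratio with a model of library, side and side by imatinib. DESeq2 1.42.0, other windows, filters, minimums and left-out libraries were alternatives. Single values were compared by exact two-sided permutation over libraries. The fits were tested on simulated data. P-values measure the spread between these samples, and intervals cover counting error only.

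The replicate numbers were not used to pair the samples in the main fits. The deviations of libraries with the same number had a correlation of -0.23, which cannot show whether the cultures were paired. Replicates differed by more than sampling noise (chi-square per degree of freedom 9.99 and 15.4). The 3′-end libraries and 168 targeted long-read models, of which 0 start in a member window, were not used further. The members and lists were chosen with earlier results of these data known. Named were the 10 pairs with the most lncRNA molecules, the 10 largest called changes of ratio, the 5 largest called rises and falls of each side, pairs called on both sides, and pairs found among 22 listed names. Some markers and 1 end sequence are not reported here.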

Additional observations from a re-analysis of the deposited data

How the results depend on the processing

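The directions held: under every alternative run, the lncRNA was the less abundant side by its median ratio (−2.57 to −1.996), its molecules were the shorter, and the median difference of the responses was above 0. For the 29 called changes of named genes and pairs, 338 of 401 values under alternatives kept the call, 43 lost it, 0 reversed, and 20 had no value. When pairs whose annotated 5′ ends overlap were also taken, 648 pairs had both sides detected, 107 lncRNAs and 134 mRNA partners were called, and 69.7% of mRNA molecules ended at annotated ends. With a minimum of 30 read pairs, 228 pairs were detected, and annotated ends made up 61.5% (lncRNA) and 70.1% (mRNA), and with a minimum of 5, 54.8% (lncRNA). Annotated ends became 60.1% (lncRNA) with a window of 200 bp, 69.3% (mRNA) with starts of all transcripts, 53.4% and 63.9% with a tolerance of 100 bp, 65.6% and 75.01% with 500 bp, and 62.3% and 76.9% over all molecules. Without the filter on A-rich ends they were 54.5% and 65.2%, and 45.9% of lncRNA molecules ended within 2 kb. That last share was 36.1% over all molecules, 25.4% with a limit of 1 kb and 62.3% with 5 kb. The mRNA span was 21.5 kb with starts of all transcripts, and over molecules the spans were 3.82 kb (lncRNA) and 8.51 kb (mRNA). Leaving out shared windows, chosen after seeing the data, gave annotated ends of 60.6% and 70.6%. With the same lncRNAs in every library, also chosen after seeing the data, the imatinib minus DMSO difference of the median lncRNA span was 0.0913 in place of 0.466 kb.

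DESeq2 called 29 lncRNAs and 20 changed ratios, a minimum of 1 read pair a side gave 40 changed ratios, and a log2 change beyond 1.5 as well left 49 mRNA partners. With the replicate block 36 ratios were called in place of 83, and the counts for lncRNAs (66) and mRNA partners (80) stayed within 1.5 times. The crossed pairing, chosen after seeing the data, called 98 lncRNAs, 195 mRNA partners and 80 ratios. Leaving out 1 library at a time gave 14 to 123 called lncRNAs, 28 to 165 mRNA partners, 2 to 93 ratios and 57.7 to 59.8% annotated lncRNA ends. The cause of these shifts was not tested. Depth limits the ratios of pairs with few lncRNA molecules, for which a single imatinib library can hold most of the read pairs.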
